A study of Mus musculus with 2 samples.

Results

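The endothelial adhesion and inflammation genes examined here are Sele, Selp, Vcam1, Icam2, Cd34, Ackr1 and Ubd, 7 of the 32285 genes counted. They were taken by symbol, and each symbol matched 1 feature in the count matrices of both libraries. The cells came from J558 allografts, tumours that this mouse plasmacytoma line forms under the skin of female BALB/c mice. One group received the vehicle, 0.5% methylcellulose, by mouth, and the other received TAK-931, an inhibitor of the replication kinase CDC7, at 60 mg/kg once daily, both until day 6. Tumours were dissociated with enzymes, red cells were lysed, and single cells were sequenced with droplet 3′ chemistry, which counts unique molecular identifiers (UMIs, tags that each mark 1 captured transcript). There was 1 library in each group, made from 1 allograft that was chosen to represent it, so no spread between animals could be measured, and every interval covers counting error only. Ranges in parentheses are 95% intervals. An age of 4 weeks is listed for the BALB/c mice, without a separate entry for the J558 experiment.

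Leukocytes leave the blood by tethering and rolling along the vessel wall, stopping, and passing through it. E-selectin (Sele) and P-selectin (Selp) carry the rolling step by binding PSGL-1, the product of Selplg. VCAM-1 (Vcam1) binds the integrin VLA-4, of which Itga4 encodes the alpha chain, and ICAM-2 (Icam2) binds LFA-1, encoded by Itgal and Itgb2. CD34 (Cd34) is a sialomucin of the endothelial surface. ACKR1 (Ackr1) is an atypical chemokine receptor that binds chemokines without classical G protein signalling and is best known on red cells and on the endothelium of venules. UBD (Ubd), also called FAT10, is a small ubiquitin-like modifier whose gene is known to respond to tumour necrosis factor and interferon-γ.

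In the GRCm38 assembly with the GENCODE M21 annotation, all 7 are protein-coding genes. Sele lies at chr1:164048234-164057677 and Selp at chr1:164115264-164150026, both on the plus strand. Ackr1 lies on the same chromosome at chr1:173331886-173333750 on the minus strand, where it overlaps Cadm3 on that strand, so the assignment of its reads is less certain. Cd34 lies at chr1:194938819-194961279 (plus strand), Vcam1 at chr3:116109949-116129688 (minus strand), Icam2 at chr11:106377656-106388075 (minus strand) and Ubd at chr17:37193892-37196095 (plus strand). Vcam1, Selp and Cd34 each overlap an annotated antisense gene, and whether counting used the strand is not given in the sources used here.

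Promoter sequence was available for 5 of the 7 genes in the RefSeq table (GRCm38.p6), and the windows of Ubd, Sele and Selp are printed because the first had the largest ratio between the libraries and the selectins are the rolling receptors. Each run holds the 250 bases before the annotated start, 5′ to 3′ on the plus strand, and capitals mark motif matches.
Ubd (chr17:37193642-37193891): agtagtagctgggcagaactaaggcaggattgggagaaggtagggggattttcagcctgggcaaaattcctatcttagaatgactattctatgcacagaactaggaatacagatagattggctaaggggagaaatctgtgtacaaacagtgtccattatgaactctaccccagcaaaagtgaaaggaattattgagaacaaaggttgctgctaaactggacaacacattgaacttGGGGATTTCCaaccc
Sele (chr1:164047984-164048233): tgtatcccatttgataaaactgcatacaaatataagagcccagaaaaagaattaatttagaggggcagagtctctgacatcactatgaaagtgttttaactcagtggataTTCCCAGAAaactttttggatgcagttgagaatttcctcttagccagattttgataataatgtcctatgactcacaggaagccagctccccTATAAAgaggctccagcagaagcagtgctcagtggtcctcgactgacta
Selp (chr1:164115014-164115263): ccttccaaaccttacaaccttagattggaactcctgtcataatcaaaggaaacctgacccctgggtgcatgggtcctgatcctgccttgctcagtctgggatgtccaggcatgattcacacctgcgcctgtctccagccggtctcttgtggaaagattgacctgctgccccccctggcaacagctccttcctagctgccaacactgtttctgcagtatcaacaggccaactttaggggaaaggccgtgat
The kappaB motif, TTCNNNGAA and TATAAA were searched on both strands. The Ubd window held 1 kappaB match, 15 to 6 bases before the start, and 3.90% of all 32851 promoter windows of that length held such a match. The Sele window held 1 TTCNNNGAA match, 140 to 132 bases before the start, against 7.02% of windows, and 1 TATAAA match, 49 to 44 bases before the start, against 12.4%. The Selp window held none of the 3. These matches describe the letters and are not evidence of binding.

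In all, 144767193 UMIs over 4565 barcodes were counted in the vehicle library, against 77369283 over 6558 in the TAK-931 library. Requiring over 2000 genes and under 15% of UMIs from mitochondrial genes left 3441 and 3488 cells. Endothelial cells were the cells of the endothelial-like clusters with at least 1 UMI of Pecam1 and 1 of Cdh5, both genes of endothelial junctions. There were 86 in the vehicle library (2.50% of kept cells) and 238 in the TAK-931 library (6.82%), with medians of 17584.5 and 15918.5 UMIs per cell. The 10 endothelial markers were all detected in both libraries, at a sum of 7836 CPM (UMIs scaled to the summed total of the cells and multiplied by 1000000) in vehicle and 4795 CPM in TAK-931. The lymphatic markers summed to 144 and 29.9 CPM. The libraries shared 8 barcodes, of which 1 was kept and 0 were endothelial. Of the endothelial-like clusters, one had 79 cells from the vehicle library against 1, and the other 7 against 240, so library and cluster nearly coincided. The 7 genes were left out of the clustering and of the marker lists.

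The endothelial cells of the TAK-931 library also carried more RNA of immune cells. Ptprc (CD45, a marker of blood cells) had 1 UMI in the vehicle endothelial cells and 643 UMIs, in 80 cells, in the TAK-931 endothelial cells. The 10 monocyte/macrophage markers summed to 77.0 CPM and 3661 CPM, with all 10 higher in TAK-931 and Fcgr1 at 0 in vehicle. The 8 T cell markers summed to 3.79 and 84.2 CPM, with 6 of them at 0 in vehicle. The plasmacytoma markers went the other way, at 8293 and 420 CPM. Results are therefore also given without the cells with a Ptprc UMI or at least 2 UMIs of Csf1r, Cd3e, Trbc2, Sdc1 and Trap1a together. This left 73 vehicle and 152 TAK-931 cells. Below, cells past or within these limits are called cells with or without UMIs of other lineages. Those within them were not free of such RNA. Over all endothelial cells, 100% in vehicle and 88.2% in TAK-931 had at least 2 UMIs of the plasmacytoma markers. For the monocyte/macrophage markers these shares were 25.6% and 96.2%. In TAK-931 the cells set aside had a median of 19999.5 UMIs and the others of 11953, and whether they were doublets was not tested. Free RNA, estimated from markers of other lineages, was 11.4% of the whole-library profile in vehicle and 7.04% in TAK-931 endothelial cells, and at that rate it made up at most 5.95% of the endothelial level of any of the 7 genes.

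Of the 7 genes, 4 were at least 2-fold higher in the TAK-931 than in the vehicle endothelial cells: Ubd, Vcam1, Ackr1 and Sele. Selp was 1.60-fold higher, and Icam2 and Cd34 were lower by less than 2-fold. Among the 10869 genes with at least 20 UMIs over both endothelial sums, 10.5% were at least 2-fold higher and 12% at least 2-fold lower. At least 8-fold higher were 2.75% of genes, among them Ubd, ranked 108 by its ratio, and Vcam1, ranked 145. The median log2 ratio was -0.17 over all these genes and -0.28 over the 4917 with at least 50 UMIs in each sum. On a scale set by the latter, 1534 genes were at least 2-fold higher and 753 lower, where the total-UMI scale gave 1144 and 1300.

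**Figure D1:**
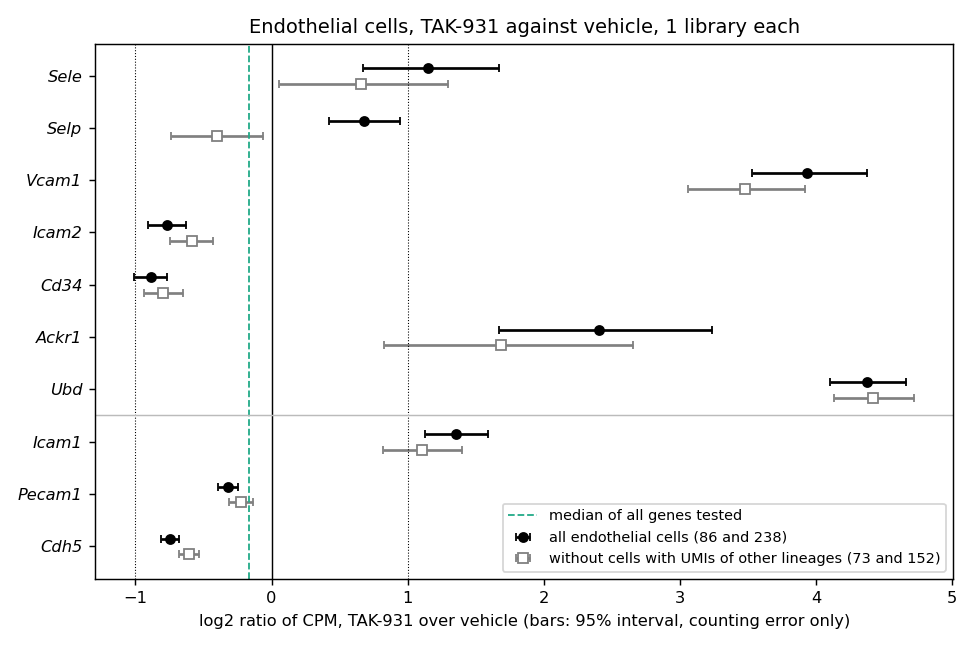
Log2 ratio of CPM, TAK-931 over vehicle, in endothelial cells for the 7 genes and for Icam1, Pecam1 and Cdh5 (x axis), with 95% intervals for counting error. Filled circles are all 86 and 238 cells. Open squares are the 73 and 152 cells kept under the limits on Ptprc and other marker UMIs, which still held some RNA of other lineages. Selp lies at 0.68 with all cells and at -0.40 with the kept cells, while Ubd lies at 4.37 and 4.42.

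The selectins and Ackr1 were found in a minority of the endothelial cells of both libraries, and their summed level over all these cells was higher in TAK-931. Sele had 41 UMIs in vehicle, 22.2 CPM (15.9 to 30.1), and 230 in TAK-931, 49.4 CPM (43.2 to 56.2), which is 1.15 (0.67 to 1.67) on the log2 scale. Selp had 153 and 617 UMIs, 82.9 CPM (70.3 to 97.2) against 133 CPM (122 to 143), for a log2 ratio of 0.68 (0.42 to 0.94). Ackr1 had 16 and 214 UMIs, 8.67 CPM (4.96 to 14.1) against 46.0 CPM (40.0 to 52.6), for a log2 ratio of 2.41 (1.67 to 3.24), 5.30-fold. Shares of cells with a UMI were compared with each cell thinned at random to 4000 UMIs, and they rested on few cells: 4.65% and 10.9% for Sele, 15.1% and 17.6% for Selp, and 3.49% and 6.30% for Ackr1. The intervals of the differences in share, -1.23 to 11.7 points, -7.49 to 10.6 points and -3.92 to 7.28 points, all contained 0. Without thinning the shares in vehicle and TAK-931 were 22.1% and 25.6% for Sele, 10.5% and 15.1% for Ackr1, and 43.0% and 29.0% for Selp, which alone of the 3 had the smaller share in TAK-931. Within the cells that had a UMI, the level was higher in TAK-931. For Selp it was 166 CPM in 37 vehicle cells and 375 CPM in 69 TAK-931 cells, and for Ackr1 56.0 CPM in 9 cells and 232 CPM in 36 cells. For Sele it was 65.5 CPM in 19 cells and 141 CPM in 61 cells.

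Ackr1 was the most concentrated of the 3. In TAK-931 the single richest cell held 42 of the 214 UMIs and the 5 richest 49.1%, and in vehicle the 5 richest held 75% of the 16 UMIs. With the same share of cells left out, the 5 richest of 86 in vehicle and the 14 richest of 238 in TAK-931, 4 and 41 UMIs of Ackr1 remained and the log2 ratio was 2.03. Left out in the same way, Sele was at 0.67, below 2-fold, and Selp at 0.32. The Selp ratio depended on the cells that carried RNA of other lineages. Without them Selp was at 95.9 CPM in vehicle and 72.5 CPM in TAK-931, a log2 ratio of -0.40 (-0.74 to -0.06). Sele was then at 0.66 (0.05 to 1.30), below 2-fold, and Ackr1 at 1.69 (0.83 to 2.66). Within the TAK-931 library Selp was at 200 CPM in the 86 cells with such UMIs and at 72.5 CPM in the 152 without, a log2 difference of 1.46 (1.21 to 1.72). Sele and Ackr1 were also higher in the cells with such UMIs, by 0.80 (0.41 to 1.20) and 0.99 (0.58 to 1.41). In the vehicle library, with 13 such cells, Selp was lower in them, at 49.0 against 95.9 CPM. The part of other cells' RNA in the Selp, Sele and Ackr1 levels was not tested.

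Vcam1, the ligand for firm adhesion, was 15.3-fold higher in TAK-931. Vehicle endothelial cells held 50 UMIs, 27.1 CPM (20.1 to 35.7), in 18 of 86 cells, and TAK-931 endothelial cells 1931 UMIs, 415 CPM (397 to 434), in 190 of 238 cells. The log2 ratio was 3.94 (3.53 to 4.37). After thinning the share of cells with a UMI was 10.5% in vehicle and 54.2% in TAK-931, a difference of 43.7 points (33.3 to 51.6), against 0.133% and 0% of J558-like cells. Vcam1 was thus spread over most TAK-931 cells. The 5 richest vehicle cells held 58% of the vehicle UMIs, and without the richest 5 vehicle and 14 TAK-931 cells 21 and 1322 UMIs remained, a log2 ratio of 4.68. Without the cells carrying UMIs of other lineages it was 3.48 (3.06 to 3.92), and the levels were 36.7 and 409 CPM. Within the TAK-931 library the cells with and without such UMIs had 422 and 409 CPM, a log2 difference of 0.04 (-0.09 to 0.18).

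**Figure D2:**
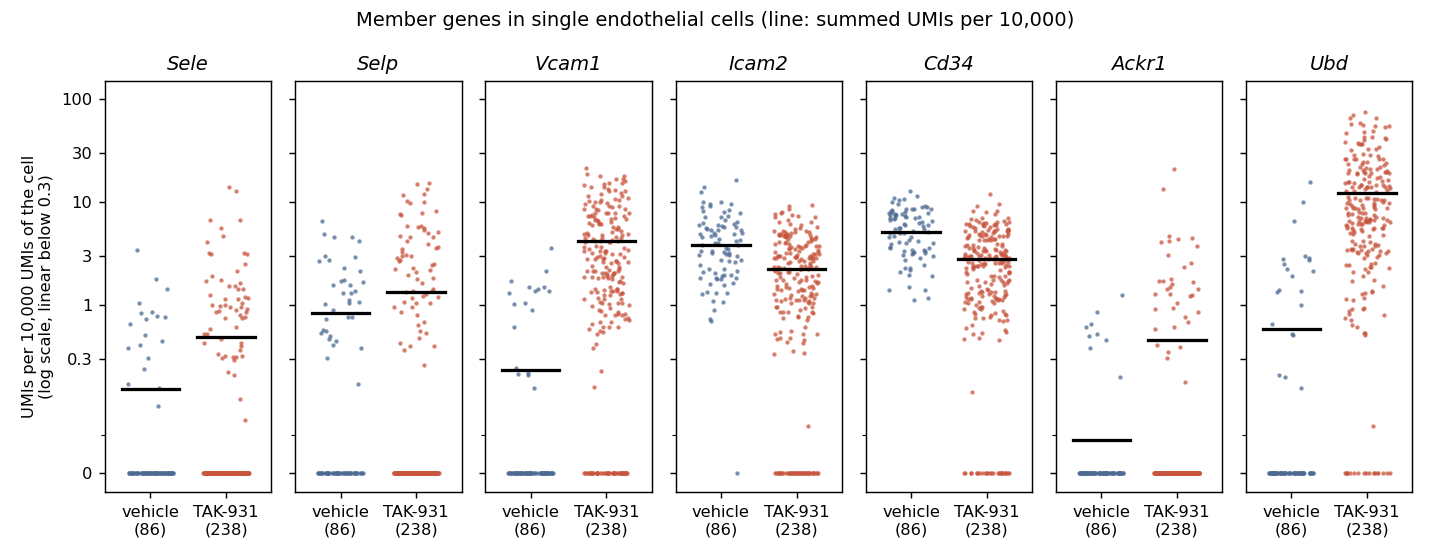
UMIs per 10000 UMIs of the cell (y axis, log scale that is linear below 0.3) for the 7 genes in single endothelial cells, 86 of the vehicle and 238 of the TAK-931 library; black lines mark the summed level. Ubd and Vcam1 are detected in most TAK-931 cells, whereas Sele, Selp and Ackr1 stay at 0 in most cells of both libraries.

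Icam2 and Cd34 were lower in the TAK-931 endothelial cells. Icam2 had 701 UMIs in vehicle, 380 CPM (352 to 409), and 1038 in TAK-931, 223 CPM (210 to 237), a log2 ratio of -0.77 (-0.91 to -0.63). Cd34 had 956 and 1303 UMIs, 518 CPM (486 to 552) against 280 CPM (265 to 296), for a log2 ratio of -0.89 (-1.01 to -0.77). Relative to the median of well-covered genes these were -0.49 and -0.61. Both were close to universal in vehicle, where 85 and 86 of 86 cells had a UMI, and they were found in 193 and 213 of 238 TAK-931 cells. After thinning Icam2 was in 81.4% and 53.4% of cells (-28.0 points, -37.3 to -16.7) and Cd34 in 84.9% and 63.4% (-21.4 points, -30.2 to -10.7). J558-like cells had Icam2 in 10.4% and 7.78%. The junction gene Cdh5 was lower too, by a log2 ratio of -0.75, and per Cdh5 UMI the counts were 0.228 and 0.225 for Icam2 and 0.311 and 0.282 for Cd34. Pecam1 was at -0.32. When every kept cell with Pecam1 and Cdh5 UMIs was taken whatever its cluster, 169 of the 266 vehicle cells were J558-like against 9 of 310 in TAK-931, and Icam2 and Cd34 came out at 0.83 and 1.08.

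Ubd, the ubiquitin-like modifier, showed the largest ratio of the 7. In vehicle endothelial cells 109 UMIs were counted, 59.1 CPM (48.5 to 71.3), in 21 of 86 cells. In TAK-931 endothelial cells 5700 UMIs were counted, 1225 CPM (1193 to 1257), in 221 of 238 cells. The median cell stood at 0 in vehicle and at 758 CPM in TAK-931, so the gene was not detected in most vehicle cells and was detected in nearly every TAK-931 cell. The log2 ratio was 4.37 (4.10 to 4.66), 20.7-fold. After thinning, Ubd was found in 15.1% of the vehicle cells and in 80.3% under TAK-931, a difference of 65.1 points (54.5 to 72.7). J558-like cells, thinned in the same way, had it in 0% and 2.22%. A single vehicle cell held 28 of the 109 UMIs, and without the richest 5 vehicle and 14 TAK-931 cells the log2 ratio was 5.30.

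A few cells fell in the cluster dominated by the other library. The 7 vehicle cells in the cluster dominated by TAK-931 had 0 UMIs of Ubd and 0 of Vcam1, where the TAK-931 cells of that cluster had 1219 and 415 CPM. Icam2 and Cd34 went the other way: those 7 cells were at 175 and 291 CPM, nearer to the 223 and 280 CPM of the TAK-931 cells of the cluster than to the 403 and 544 CPM of the other vehicle cells. The 1 TAK-931 cell in the cluster dominated by vehicle had 47 UMIs of Ubd and 6 of Vcam1. These are 8 cells, and no test was made of them.

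The genes were not spread alike over the TAK-931 endothelial cells. After thinning, 188 of the 238 cells had none of Sele, Selp and Ackr1, 26 had 1 of them, 15 had 2 and 9 had all 3. Of the 15 cells with Ackr1, 14 also had Selp, a share of 93.3% against 12.6% of the other cells. Of the 26 cells with Sele, 18 also had Selp (69.2%, against 11.3% of the other cells) and 10 had Ackr1 (38.5% against 2.36%). The 3 genes thus shared cells. The 42 cells with Selp also had Vwf, which encodes von Willebrand factor and is rich in venous endothelium, in 47.6% (9.18% of the others), and Nr2f2, a transcription factor of venous identity, in 54.8% (21.4%). Icam2 was in 28.6% of them and 58.7% of the others. Of the 42 cells, 22 carried UMIs of other lineages, and in TAK-931 the cells with such UMIs also had less Icam2, at 140 against 297 CPM. In the 20 cells with Selp and without such UMIs, Icam2 was in 40% (63.6% of the other cells without such UMIs), Vwf in 55% (9.09%), Nr2f2 in 65% (25%), Sele in 40% (3.03%) and Ackr1 in 30% (0%). Ubd did not follow this grouping: it was in 73.8% of cells with Selp and 81.6% of those without. Vcam1 was in 29 of the 42 cells with Selp. In vehicle only 13 cells had Selp after thinning, 4 had Sele and 3 had Ackr1, 2 cells had a pair of them and 0 had all 3.

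Splitting the endothelial cells by a Vwf or Nr2f2 UMI, a choice made after the data were seen, gave different Ackr1 ratios in the 2 groups. The split used counts thinned to 4000 UMIs, so cells of the group without could hold such UMIs at full depth. Levels were taken from all UMIs of the cells. Vwf itself differed between the libraries, with 26 and 261 UMIs, and after thinning it was in 6 of 86 and 38 of 238 cells, so which cells fell in a group depended in part on a gene that was higher in TAK-931. With such a UMI there were 30 vehicle and 86 TAK-931 cells, and Ackr1 was at 12.4 and 109 CPM, a log2 ratio of 3.14 (2.19 to 4.29). Without it there were 56 and 152 cells, and Ackr1 was at 6.26 and 7.26 CPM, a log2 ratio of 0.21 (-1.07 to 1.69). Within TAK-931, Ackr1 was 15.1-fold and Selp 6.03-fold higher in the cells with a Vwf or Nr2f2 UMI, and in vehicle Selp was 3.94-fold higher. The Selp ratios between libraries were 0.86 (0.56 to 1.17) with and 0.25 (-0.26 to 0.78) without, and these intervals overlap. Ubd, at 4.43 and 4.34, Vcam1, at 3.66 and 4.21, and Sele, at 1.18 and 1.17, were higher in TAK-931 in both groups. Icam2 (-0.72 and -0.80) and Cd34 (-0.87 and -0.90) were lower in both.

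**Figure D3:**
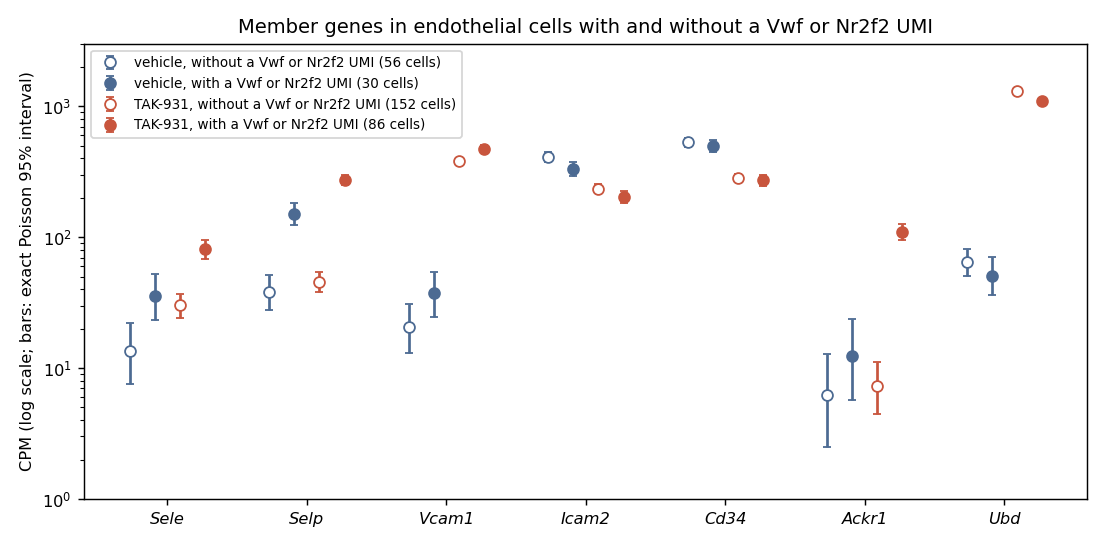
CPM (y axis, log scale) of the 7 genes in endothelial cells with a Vwf or Nr2f2 UMI after thinning (filled) and without (open), by library, with exact Poisson 95% intervals. Ackr1 in TAK-931 is at 109 CPM with and 7.26 CPM without such a UMI, while Ubd is near 1098 and 1301 CPM.

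Against all other kept cells, 6 of the 7 genes in vehicle and 7 in TAK-931 were at least 2-fold higher in endothelial cells, where 29% and 17.8% of all genes tested were. Cd34, Ubd, Ackr1 and Sele were the most restricted in vehicle, with log2 ratios of 9.68, 9.55, 9.24 and 9.01, and Selp had 7.47. In TAK-931 the same 5 genes had 5.84, 6.57, 6.73, 7.12 and 6.59. The other cells were not alike in the libraries: 2997 of the 3355 were J558-like in vehicle, whereas 2011 of the 3250 were monocyte/macrophage-like and 664 T-like in TAK-931. The vehicle ratios of Ackr1 and Sele rested on 2 and 6 UMIs in other cells, and their intervals (7.15 to 12.4 and 7.77 to 10.5) overlap those of TAK-931 (6.16 to 7.35 and 6.50 to 7.80). Endothelial cells held 90.8% of the Ubd UMIs of kept cells in vehicle and 87.3% in TAK-931. For Ackr1 the shares were 88.9% and 88.4%, for Sele 87.2% and 90.9%, and for Cd34 91.6% and 80.5%. Selp was at 70.2% and 87.4%, with 28.4% of its vehicle UMIs in J558-like cells. The share of Icam2 was lower still in vehicle: endothelial cells held 16.6% of its UMIs in vehicle and 62.7% in TAK-931. J558-like cells held 80.4% of the vehicle Icam2 UMIs, at 25.6 CPM in 2997 cells, and were at 21.1 CPM in the 90 such cells of TAK-931.

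Vcam1 was the least endothelial of the 7. Its log2 ratio of endothelial to other cells was 0.97 (0.53 to 1.37) in vehicle and 2.05 (1.98 to 2.13) in TAK-931. The vehicle direction turned under other choices, to -0.37 with the mean of each cell's CPM and to -0.28 with every kept cell that had Pecam1 and Cdh5 UMIs. Most of its UMIs were in monocyte/macrophage-like cells, 92.5% in vehicle and 66.6% in TAK-931, and endothelial cells held 2.52% and 23.0%. In monocyte/macrophage-like cells the level was 677 CPM in vehicle and 169 CPM in TAK-931, a log2 ratio of -2.00 (-2.08 to -1.92), opposite in sign to that of endothelial cells. The order of these classes was thus macrophage above endothelium in vehicle and the reverse in TAK-931. One macrophage cluster, led by Ccl8, Pltp, Apoe and C1qc, held 1821 of the 1833 vehicle UMIs and 5087 of the 5591 TAK-931 UMIs, with 946 CPM in 127 vehicle cells and 245 CPM in 1091 TAK-931 cells. Another, led by Thbs1, Fcgr1 and Tgfbi, had 15.6 CPM in 86 cells and 33.6 CPM in 755 cells. In dendritic-like cells Vcam1 was at 17.5 and 9.77 CPM, and 1 vehicle cell held 51.9% of those UMIs.

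Vcam1 was higher in TAK-931 in stromal cells as well. Fibroblast-like cells had 30.2 CPM in vehicle (22 cells) and 132 CPM in TAK-931 (56 cells), a log2 ratio of 2.13 (1.57 to 2.74). An unnamed cluster led by Acta2 and Rgs5, genes of contractile perivascular cells, had 3.68 CPM from 3 UMIs in 29 vehicle cells and 144 CPM from 321 UMIs in 65 TAK-931 cells, a log2 ratio of 5.30 (3.74 to 7.58). Immune RNA was also higher in both: Ptprc had 5 and 169 UMIs in fibroblast-like cells and 2 and 229 in that cluster. Without the cells that had a Ptprc UMI, an alternative chosen after the data were seen, the Vcam1 ratios were 2.31 (1.73 to 2.94) and 5.53 (3.95 to 7.82). J558-like cells had Vcam1 at 0.271 CPM from 36 UMIs and 1.68 CPM from 11 UMIs, a log2 ratio of 2.63 (1.51 to 3.64) at a low level. In the TAK-931 cells of the Acta2 and Rgs5 cluster, Vcam1 was at 140 CPM in the 41 cells with a Pecam1 or Cdh5 UMI and at 158 CPM in the 24 without. Vcam1 was thus at similar levels in both sets of cells, and Ubd was not. Ubd in that cluster was at 9.80 CPM in vehicle and 166 CPM in TAK-931, and 367 of its 369 UMIs lay in the 41 cells with a Pecam1 or Cdh5 UMI. In vehicle all 8 of its UMIs lay in the 7 such cells.

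**Figure D4:**
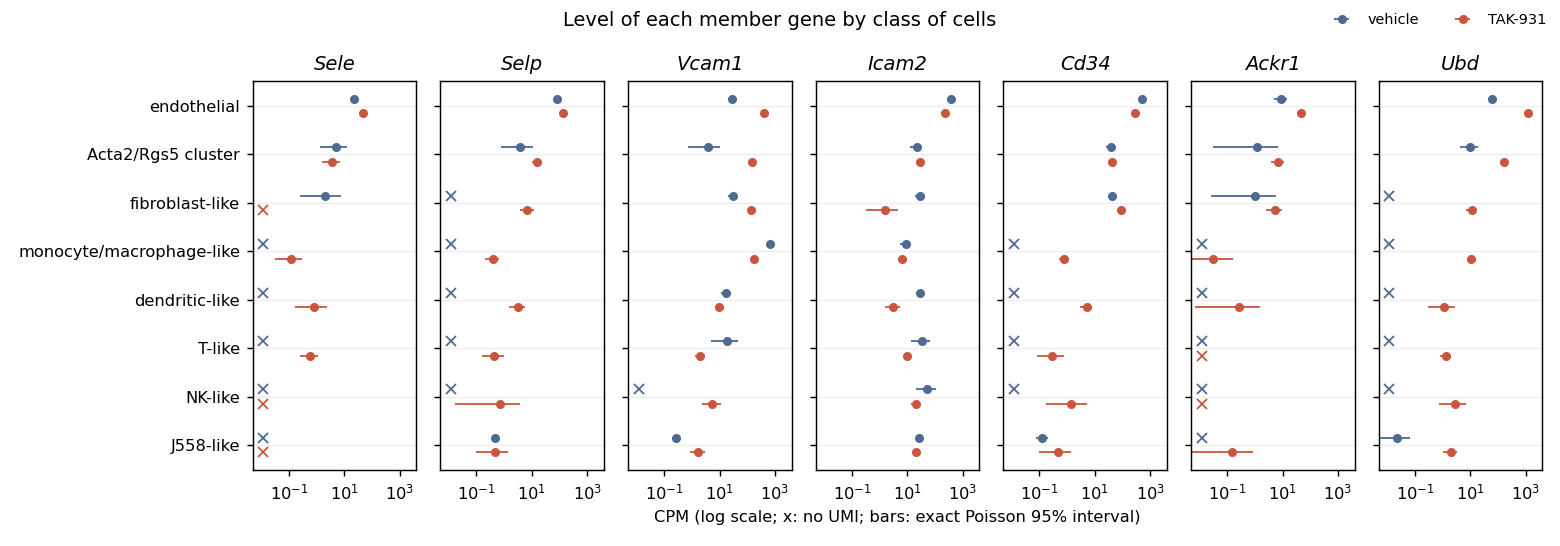
CPM (x axis, log scale) of the 7 genes by class of cells in the vehicle and TAK-931 libraries, with exact Poisson 95% intervals; a cross marks a class with no UMI. Endothelial cells lead for every gene except Vcam1 in vehicle, where monocyte/macrophage-like cells stand at 677 CPM.

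Ubd and Cd34 were also counted outside endothelial cells in TAK-931. In monocyte/macrophage-like cells Ubd had 0 UMIs in 215 vehicle cells and 357 UMIs in 189 of 2011 TAK-931 cells, 10.8 CPM, and 1 cell held 17.4% of them. The free RNA estimated for these cells would bring 3.68 CPM of Ubd in TAK-931 and 0.0220 CPM in vehicle, beside the 10.8 and 0 CPM counted. Ubd was at 12.2 CPM (6.82 to 20.1) in the 65 TAK-931 macrophage cells with a Cdh5 UMI and at 10.7 CPM (9.64 to 11.95) in the 1946 without. Per Cdh5 UMI, Ubd was at 1.23 in endothelial, 1.00 in J558-like, 0.947 in T-like and 4.58 in monocyte/macrophage-like cells of TAK-931. The macrophage quotient rested on 78 Cdh5 UMIs. Other quotients above the endothelial one rested on 5 Cdh5 UMIs or fewer: 22 UMIs of Ubd against 5 of Cdh5 in fibroblast-like cells, 4 against 2 in NK-like cells and 36 against 1 in the unnamed Trbc2 and Cd3g cluster. The Acta2 and Rgs5 cluster was at 0.944, and dendritic-like and plasmacytoid dendritic-like cells were at 0.5 and 0.125. Cd34 in fibroblast-like cells was at 42.7 CPM in vehicle and 86.9 CPM in TAK-931, a log2 ratio of 1.03 (0.53 to 1.56). The cells behind it differed: in vehicle all 41 UMIs lay in the 12 fibroblast-like cells with a Pecam1 or Cdh5 UMI, and in TAK-931 135 of 167 lay in the 29 cells without. Selp, Sele and Ackr1 stayed at or under 14.8 CPM in every class other than the endothelial one.

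The leukocyte partners of these receptors were read in the leukocytes. Selplg was at 252 CPM in 13 vehicle and 335 CPM in 664 TAK-931 T-like cells, and at 101 and 149 CPM in monocyte/macrophage-like cells. Itga4 was at 117 and 193 CPM in T-like cells and at 79.5 and 79.8 CPM in monocyte/macrophage-like cells. Itgal was at 74.7 and 180 CPM in T-like cells. In endothelial cells 8 of 11 genes of the partner list were at least 2-fold higher in TAK-931 and 2 lower, with a median log2 ratio of 2.78. The highest were Itgb2 (7.01), Itgam (5.23) and Selplg (3.93), at 1, 1 and 4 UMIs in vehicle, and the lowest were Itga9 (-1.25) and Itgb1 (-1.49). The limits on UMIs of other lineages include leukocyte genes, so lower counts of leukocyte partners follow in part from that choice of cells. In the 152 TAK-931 cells without such UMIs Itgb2 had 15 of its 325 UMIs, Itgam 6 of 95 and Selplg 9 of 154. Without the cells carrying such UMIs the list turned: of the 6 partner genes counted in both libraries 2 were at least 2-fold higher and 3 lower, with a median of -0.999, and the other 5 had 0 UMIs in vehicle. In the same cells 7.53% of the 10536 genes counted in both libraries were at least 2-fold higher and 12.1% at least 2-fold lower, with a median of -0.20.

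Of the lists around these genes, the interferon response and antigen presentation list had the most genes at least 2-fold higher, 24 of 28, 0 lower and a median log2 ratio of 2.03. The MHC class II genes led it: H2-Aa (2.17 and 1543 CPM, log2 ratio 9.48), H2-Ab1 (8.11) and Cd74, the invariant chain (6.72). The lowest were Psmb10, an immunoproteasome subunit (0.74), and Isg15, a ubiquitin-like interferon product (0.09). Without the cells carrying UMIs of other lineages, 23 genes of the list were at least 2-fold higher and the median over the 27 genes counted in both libraries was 1.89. H2-Aa was then at 7.30, H2-Ab1 at 7.98, Cd74 at 7.32 and Isg15 at -0.23. Class II genes are also expressed by macrophages and dendritic cells, and H2-Aa was at 355 instead of 1543 CPM in TAK-931 when those cells were left out.

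Of 24 NF-kB and cytokine response genes, 11 were at least 2-fold higher and 0 lower, with a median of 0.92. Cxcl16, a chemokine that is also made by macrophages, was at 4.95, the chemokine Ccl7 at 2.89, and Cx3cl1, the membrane-bound chemokine fractalkine, had 0 and 66 UMIs, a log2 ratio of at least 3.12 against a floor of 3 counts, with a lower 95% limit of 2.79. The receptors Tnfrsf1a (-0.69) and Il1r1 (-0.88) were the lowest. Without the cells carrying UMIs of other lineages, 22 genes were counted in both libraries. Of these 6 were at least 2-fold higher and 2 lower, with a median of 0.25. Cxcl16 was then at 1.61. Ccl7 and Cx3cl1 each had 0 and 34 UMIs and are not in that count, although both are among the 11 higher over all cells. Of the adhesion and passage list, 5 of 15 genes were at least 2-fold higher and 1 lower, with a median of -0.20. Without the cells carrying UMIs of other lineages 4 were higher and 1 lower, and the median was 0.18. Over all cells Vwf was at 1.99, the hyaluronan receptor Cd44 at 1.77, caveolin-1 (Cav1) at 1.50, podocalyxin (Podxl) at -0.78 and Mcam, an adhesion molecule of the immunoglobulin family, at -1.80. Icam1, the endothelial ligand of LFA-1 that is induced by cytokines, had 178 and 1150 UMIs, 96.5 and 247 CPM, a log2 ratio of 1.36, the opposite sign to Icam2. It was named for that contrast after its values were seen. Of the 387 TAK-931 UMIs of Cd44, 36 lay in the cells without UMIs of other lineages, against 3 of 45 in vehicle.

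The lists of vessel types were mixed. Of 8 venous genes 1 was at least 2-fold higher and 3 lower (median -0.47), with Vwf at 1.99, Nr2f2 at 0.40, Emp1 at -0.01, the apelin receptor Aplnr at -1.46 and Lrg1 at -2.42. Of 8 arterial genes 1 was higher and 2 lower (median 0.74), with Fbln5 at 2.20, Bmx at 0.93, the connexin gene Gja4 at 0.80, and the Notch pathway genes Hey1 at -1.06 and Dll4 at -1.75. Of 8 capillary genes 2 were higher and 1 lower (median 0.09), with Lpl at 5.80 from 1 and 141 UMIs, Rgcc at 1.84, the lipid carrier Fabp4 at 0.72, Gpihbp1 at -0.57 and the carbonic anhydrase Car4 at -3.04. In the cells without UMIs of other lineages Lpl had 0 and 12 UMIs. Of 10 angiogenic tip genes 1 was higher and 4 lower (median -0.86), with Pgf at 1.93, Cxcr4 at 0.65, Plaur at 0.59, Mcam at -1.80 and Esm1 at -2.89. Cxcr4 and Plaur, which leukocytes also express, were at -0.32 and -0.23 without the cells carrying UMIs of other lineages. Of 12 endothelial identity genes 0 were higher and 3 lower (median -0.64), from Egfl7 (-0.03), Tie1 (-0.10) and Erg (-0.39) to Emcn (-1.36) and the VEGF receptor Flt1 (-1.66). Cd34 and Icam2 thus lay within the range of the identity genes. Without the cells carrying UMIs of other lineages 2 arterial genes were higher and 1 lower (median 0.75), 1 venous gene higher and 4 lower (-0.57), 1 of 7 capillary genes higher and 1 lower (-0.19), 1 tip gene higher and 4 lower (-0.84), and 0 identity genes higher and 2 lower (-0.45). Egfl7 was then at 0.18.

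**Figure D5:**
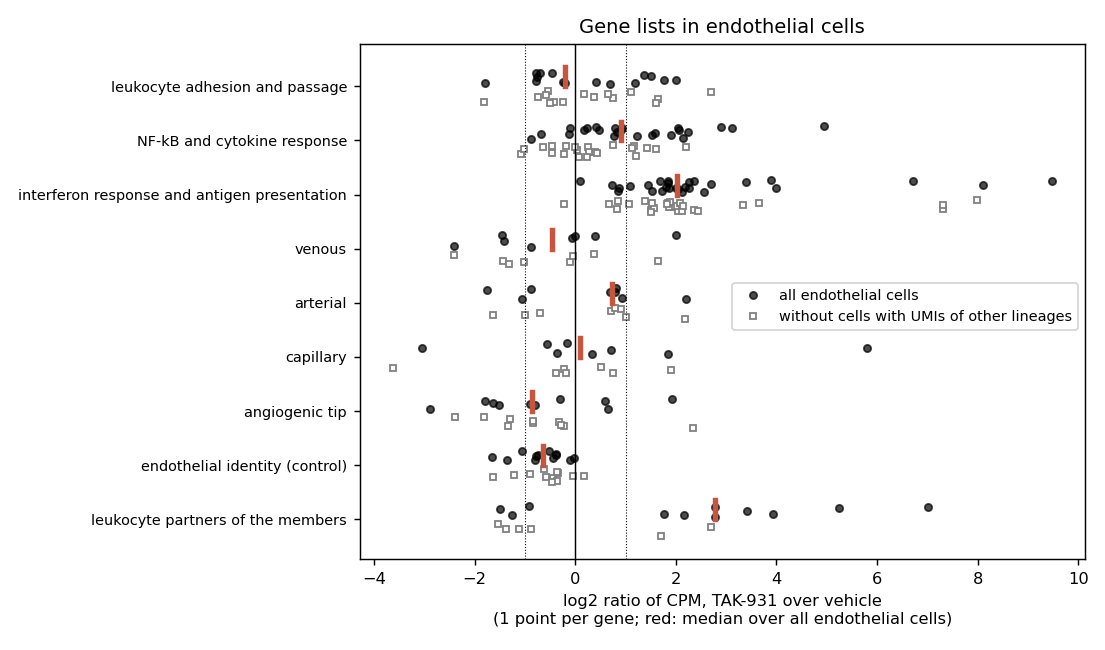
Log2 ratio of CPM, TAK-931 over vehicle, in endothelial cells (x axis) for each gene of 9 lists. Filled circles are all cells, and red bars the median over all cells. Open squares are the cells kept under the limits on Ptprc and other marker UMIs. The interferon and antigen presentation list has a median of 2.03 and the endothelial identity list of -0.64.

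Over the 16 combinations of class and library with at least 20 cells, and 8750 genes, the genes most like each member in log2(CPM + 1) were named by Pearson's r as a description. The points of a library share its depth. Sele was most like Bcl6b (0.99), Cyyr1 and Rtp3 (both 0.97), Selp like Thsd1 (0.96), A930028N01Rik (0.94) and Stmn2 (0.93), and Ackr1 like Hoxd9, Plscr2 (both 0.96) and Hoxd4 (0.95). Ubd was most like Ptprr (0.90), Clca3a1 (0.89) and Selp (0.88). Vcam1, unlike these, was closest to Hmox1 (0.93), Lipa (0.93) and Rgl1 (0.90), of which Hmox1 encodes heme oxygenase 1 and Lipa lysosomal acid lipase.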

How the data were processed

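The authors sequenced single cells of 1 J558 allograft per treatment, 1 library each, with a droplet 3′ kit. Raw UMI counts per gene and barcode make up the deposited matrices; the submitters' processing notes name Cell Ranger 6.0.0 and mm10, whereas the methods name a human build. No samples lay outside these groups. The methods' limits (over 2000 genes, under 15% mitochondrial UMIs) were applied. For clustering, each cell was scaled to 10000 UMIs and logged (scanpy 1.11.5), and 2000 variable genes without the 7 members gave 20 principal components, 20 neighbours and Leiden clusters (leidenalg 0.10.2, resolution 0.5, seed 0). Clusters were named "-like" from 14 marker lists. Doublets were not removed.

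For each class in each library, UMIs were added up and divided by their total to give CPM. Levels carry exact Poisson, ratios conditional binomial, shares Clopper-Pearson and differences of shares Newcombe 95% intervals (scipy 1.17.1). A sum of 0 was set to a floor of 3 counts per sum. In the list values without cells carrying UMIs of other lineages, genes with a sum of 0 were left out instead. Genes with at least 20 UMIs over both sums were compared; with 1 library per group no p-value was computed, and a gene counted as higher or lower by fold alone. Shares used cells thinned to 4000 UMIs; all endothelial cells reached that depth, and a count of 0 allows up to 1.63 CPM in vehicle and 0.644 CPM in TAK-931 endothelial cells. The ratios and their intervals were tested on simulated sums, and thinning was checked on endothelial cells of these data. Clustering, cluster names, the choice of endothelial cells and the free RNA estimate were not tested in this way.

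The members and lists were chosen with earlier results of these data known. Named genes were the 7 members, the 3 highest and 2 lowest of each list, and the 3 genes most like each of 5 members. Clusters of other cells, gene and mitochondrial limits, scaling, free RNA, thinning, UMI minimums and the richest cells were varied; the split by Vwf or Nr2f2, the equal share of richest cells and the list values without cells of other lineages were chosen after seeing the data. The values of 1 gene of the partner list are not reported here singly.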

Additional observations from a re-analysis of the deposited data

Results flagged for a closer look

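Vcam1 moved in opposite directions in different cells. Its log2 ratio, TAK-931 over vehicle, was -2.00 in monocyte/macrophage-like cells and -0.84 in dendritic-like cells, against 3.94 in endothelial cells. The dendritic-like value rests on 27 and 35 UMIs, with 51.9% of the vehicle UMIs in 1 cell. Cd34 had a log2 ratio of 1.03 in fibroblast-like cells against -0.89 in endothelial cells. With 1 library per group these differences between cell classes were not tested.

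Ubd was also found in barcodes outside the limits. In the TAK-931 library, 67 barcodes with over 500 and at most 2000 genes had Pecam1 and Cdh5 UMIs, and they held 255 UMIs of Ubd, 888 CPM. The vehicle library had 3 such barcodes with 0 Ubd UMIs among 12056 UMIs, so the comparison has little depth.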

How the results depend on the processing

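With 1 library per group no replicate could be left out. No paired analysis was possible because each group has 1 library. Of the values that answer a comparison, 132 kept their direction and stayed within the counting error or within 1.5 times the main count under the alternatives, 24 moved and 3 reversed; of the other values 370 stayed, 59 moved and 4 reversed. When every kept cell with Pecam1 and Cdh5 UMIs was used, 169 of the 266 vehicle cells being J558-like, the log2 ratios were 4.70 for Vcam1, 3.03 for Sele, 2.70 for Selp, 0.83 for Icam2 (reversed), 4.37 for Ackr1, 6.33 for Ubd and 1.08 for Cd34 (reversed). The differences in share were then 8.69 points for Icam2 and 21.0 points for Cd34 (both reversed). A higher share was seen in 7 members and a lower one in 0. Of all 12948 genes tested in those cells, 19.8% had a higher and 19.1% a lower share of cells. In the main endothelial cells 2 members had a higher and 2 a lower share, where of 10869 genes 5.7% had a higher and 14.9% a lower one. Of the 8 lists other than the partner list, each gene counted once, 88 genes were at least 2-fold higher and 1 lower. In the main cells these were 44 and 13. Of all genes tested, 27.5% were at least 2-fold higher and 17.4% lower with every kept cell, against 10.5% and 12% in the main cells. With every kept cell the vehicle Vcam1 ratio of endothelial to other cells was -0.28 (reversed). Without the cells past the limits on Ptprc and other marker UMIs the ratios were 3.48 for Vcam1, 0.66 for Sele, -0.40 for Selp (reversed) and -0.59 for Icam2. The cause was not tested. With the mean of each cell's CPM Icam2 was at -0.97, and the vehicle Vcam1 ratio of endothelial to other cells was -0.37 (reversed). With median-ratio scaling Selp was at 0.96, Icam2 at -0.49 and Cd34 at -0.61. Without the 5 cells with most UMIs Vcam1 was at 4.87, Selp at 0.96, Ackr1 at 3.33 and Ubd at 5.47, but these 5 cells are a larger share of the 86 vehicle than of the 238 TAK-931 cells. With the same share left out (5 and 14 cells), an alternative chosen after seeing the data, Vcam1 was at 4.68, Sele at 0.67, Selp at 0.32 and Ubd at 5.30. The 16 Ackr1 and 41 Sele UMIs of the vehicle endothelial cells set the precision of those ratios.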

Other observations

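In the TAK-931 library 95 barcodes had over 2000 genes and at least 15% mitochondrial UMIs, and 36 of them had Pecam1 and Cdh5 UMIs. These held Ubd at 958 CPM, Vcam1 at 398 CPM, Cd34 at 203 CPM, Icam2 at 174 CPM, Selp at 67.8 CPM, Sele at 44.2 CPM and Ackr1 at 8.85 CPM from 3 UMIs. The vehicle library had 10 barcodes beyond that limit and 0 with both UMIs.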
